A study of Mus musculus with 24 samples.

Results

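Hepatic expression of 9 enzymes that make, interconvert or inactivate steroid hormones was examined, out of 25746 genes listed in the count files. The enzymes were taken by name and were Hsd3b2, Hsd3b3, Hsd3b5, Hsd17b2, Hsd11b1, Srd5a1, Akr1c6, Akr1d1 and Cyp17a1, and each of the 9 was found once in the GENCODE M21 annotation of GRCm38. RNAseq counts came from the livers of 24 mice aged 12 weeks, with 6 mice in each of 4 groups and 1 library per mouse. The groups were male wildtype (mWT), male knockout (mKO), female wildtype (fWT) and female knockout (fKO) mice, all on the C57/BL6N background. KO mice were homozygous for a CRISPR/Cas9 deletion of the whole major urinary protein (Mup) cluster on chromosome 4, and WT mice carried the intact cluster. The KO line descended from 1 male founder, so the deletion cannot be told apart from other changes that this founder may have passed on nearby. All mice received standard chow and were briefly fasted and scanned under isoflurane before the liver was taken. The comparisons were males against females within each genotype, KO against WT within each sex, and the difference between the KO effects of both sexes.

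Steroid hormones reach the liver from the gonads and adrenal glands, and hepatocytes convert them stepwise into less active, more soluble products. The 5α-reductase Srd5a1 and the 5β-reductase Akr1d1 reduce the first ring, aldo-keto reductases such as Akr1c6 and the ketosteroid reductase Hsd3b5 act on keto groups, and conjugating enzymes then add sulfate or glucuronic acid. Other members work in both directions of hormone activity, since Hsd11b1 regenerates active glucocorticoid from its inert 11-keto form and Hsd17b2 oxidizes oestradiol and testosterone. Many enzymes of this kind are known to differ between male and female mouse liver, where the pattern of growth hormone secretion and androgens set sex-dependent expression.

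The members of the 3β-hydroxysteroid dehydrogenase family had log2 fold changes of mWT over fWT of 4.71 for Hsd3b5, 1.03 for Hsd3b2 and 0.77 for Hsd3b3, although their genes are neighbours within 144 kb of chromosome 3 and similar in sequence. Hsd3b5 lies at chr3:98618634-98630252, Hsd3b2 at chr3:98709255-98724543 and Hsd3b3 at chr3:98741523-98763127, all on the minus strand of GRCm38. Their coding sequences were 95.1% identical between Hsd3b2 and Hsd3b3, 80.7% between Hsd3b2 and Hsd3b5 and 79.9% between Hsd3b3 and Hsd3b5. The 250 bases before the start site in RefSeq (GRCm38.p6) are shown for these 3 genes because they are the neighbours that the sex comparison sets apart. Capitals mark runs of at least 12 bases that also occur in one of the other 2 windows. The windows are chr3:98645535-98645784 for Hsd3b5, chr3:98763129-98763378 for Hsd3b3 and chr3:98724544-98724793 for Hsd3b2, read on the minus strand.
Hsd3b5: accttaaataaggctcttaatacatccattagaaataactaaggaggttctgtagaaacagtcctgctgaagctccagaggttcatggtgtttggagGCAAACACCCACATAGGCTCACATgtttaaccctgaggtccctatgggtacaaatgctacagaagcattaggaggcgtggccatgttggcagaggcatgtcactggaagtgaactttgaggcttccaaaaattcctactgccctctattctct
Hsd3b3: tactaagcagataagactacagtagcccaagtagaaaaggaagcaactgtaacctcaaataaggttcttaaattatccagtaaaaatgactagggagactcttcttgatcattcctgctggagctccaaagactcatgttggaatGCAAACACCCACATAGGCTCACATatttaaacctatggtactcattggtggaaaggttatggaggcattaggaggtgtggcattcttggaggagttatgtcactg
Hsd3b2: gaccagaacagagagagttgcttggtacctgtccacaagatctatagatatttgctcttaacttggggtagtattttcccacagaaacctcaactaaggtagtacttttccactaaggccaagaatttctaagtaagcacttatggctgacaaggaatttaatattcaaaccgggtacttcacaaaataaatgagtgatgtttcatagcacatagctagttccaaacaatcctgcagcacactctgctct
The windows of Hsd3b5 and Hsd3b3 had 1 such run in common, GCAAACACCCACATAGGCTCACAT, 24 bases long, at position −153 in Hsd3b5 and −105 in Hsd3b3 counted from the start site. The Hsd3b2 window of 250 bases had no such run. This depended on where the window ended. With the 50 bases after the start included, Hsd3b2 had runs of at least 12 bases in common with Hsd3b3 and with Hsd3b5. RefSeq places the start of Hsd3b5 15282 bases upstream of the start that GENCODE M21 gives, so its window need not be the one used in these livers.

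Promoter windows of 300 bases (250 before and 50 after the start) were found in RefSeq for 7 of the 9 genes, in 8 windows, and none was found for Hsd17b2 and Cyp17a1. They were searched on both strands for letters known from regulators of sex-dependent and hepatic genes. The STAT5 and BCL6 letters TTCNNNGAA, which 8.3% of 32851 mouse promoter windows held, matched in 0 of the 8 windows. The HNF6 and CUX2 letters ATCGAT (0.925% of windows), the HNF6 letters ATTGAT (7.54%) and the palindromic HNF1 motif (0.00913%) also matched in 0. Hsd3b2 held the steroid receptor letters TGTTCT once at position −246 on the opposite strand, as did 19% of all windows on either strand. Akr1d1 held the nuclear receptor letters AGGTCA at −232 and −210 on the opposite strand (16.3% of windows), and Akr1c6 held the TATA letters TATAAA at −164 (13.6% of windows). These are matches of letters in short windows and not sites shown to be bound.

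The libraries held 15361901 to 26261394 counts. A 3-count floor corresponded to at most 0.199 CPM, the unit of counts scaled to a common library size that is used for single genes throughout, and all members lay well above it, with 61 counts as the lowest value of any member in any mouse. Such floors cover counting error only. Of the KO mice, 1 of 6 males and 2 of 6 females had any Mup read, at most 11 counts per mouse, whereas WT males had 17018 to 37373 CPM and WT females 3392 to 5255 CPM of Mup transcripts. The Y-linked genes matched the sex label of every mouse. Hepatocyte markers summed to between 91495 and 146570 CPM in all mice. Of 6 adrenal markers, Cyp11b1, Cyp11b2 and Nr5a1 had 0 counts in all 24 libraries. The others were detected, at group means of at most 1.61 CPM. As these are bulk livers, fewer cells of a type and less RNA per cell cannot be told apart.

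Levels of different members were compared as counts per base of exon, scaled to the same sum in every library. Akr1c6, which acts as a 17β-hydroxysteroid dehydrogenase on androgens and oestrogens, had the highest level in all 4 groups, from 1744 ± 109 (SD, n = 6) in fWT to 1979 ± 197 (SD, n = 6) in mKO mice. Its lowest mouse stood above the highest mouse of every other member. In males of both genotypes the next level was that of Hsd3b5 (452 ± 103 in mWT and 516 ± 181 in mKO, SD, n = 6), followed by Hsd11b1 (330 ± 17.9 in mWT and 405 ± 44.2 in mKO), and the ranges of these 2 overlapped. Cyp17a1 was the lowest member in males (15.3 ± 5.32 in mWT and 17.5 ± 8.50 in mKO), clear of all others. In females, Hsd3b5 was the lowest member in fWT (18.2 ± 9.39) and the second lowest in fKO (31.3 ± 20.7), and its range overlapped that of Hsd3b2 in both groups. Cyp17a1 stood much higher in fWT mice, at 203 ± 80.9, between Akr1d1 (290.1 ± 38.9) and Hsd17b2 (197 ± 21.5), with overlap to both. Hsd3b5 made up 75.0% ± 4.12 (SD, n = 6) of the summed per-length level of Hsd3b2, Hsd3b3 and Hsd3b5 in mWT and 76.2% ± 3.73 in mKO mice, but 16.8% ± 6.64 in fWT and 24.2% ± 13.0 in fKO mice. These shares rest on GENCODE exon lengths of 1549 bases for Hsd3b5, 3695 for Hsd3b2 and 6396 for Hsd3b3, and the annotated extent of Hsd3b5 differs between GENCODE and RefSeq, as given above. Without division by length, Hsd3b5 held on average 46.0% of the counts of all 6 Hsd3b genes in mWT, 47.1% in mKO, 5.39% in fWT and 8.54% in fKO mice.

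**Figure D1:**
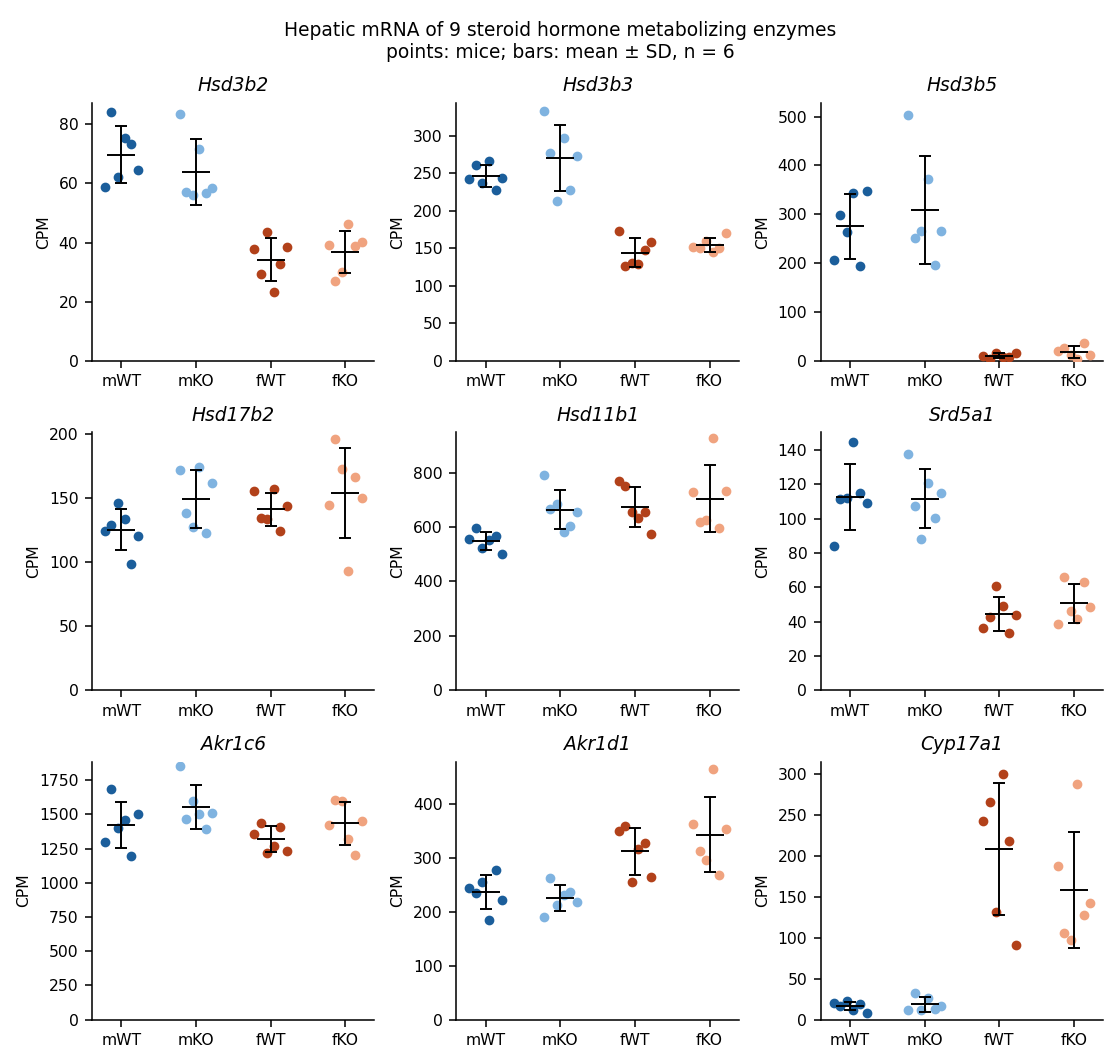
Expression of the 9 enzymes in each mouse as CPM (vertical axes, linear from 0) in mWT, mKO, fWT and fKO mice, with points for mice and bars for mean ± SD (n = 6). Male and female points are apart for Hsd3b2, Hsd3b3, Hsd3b5, Srd5a1 and Cyp17a1, while KO and WT points of each sex overlap in every panel.

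The first comparison asked which members differed between males and females. In WT mice 7 of the 9 members passed the test (quasi-likelihood F test of edgeR, p adjusted by Benjamini-Hochberg over 12330 genes and under 0.05), where 17.3% of all genes tested did. Of these 7, Hsd3b5, Srd5a1, Hsd3b2 and Hsd3b3 were higher in males, against 8.51% of all genes, and Cyp17a1, Akr1d1 and Hsd11b1 were lower in males, against 8.81%. In 5 members the 6 mWT and 6 fWT mice did not overlap, as in 7.71% of genes. The same comparison in KO mice, which lack Mup in both sexes, had 6 of 9 members past the threshold (14.4% of all genes), with the same members as in WT mice except Hsd11b1. The higher group again held 4 members (7.26% of genes higher in males) and the lower group 2 (7.13% lower in males), and males and females did not overlap in 6 members (7.26% of genes). Hsd17b2 and Akr1c6 did not pass in either genotype.

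Hsd3b5, a ketosteroid reductase known as a male marker of mouse liver, had the largest difference. Its lowest, median and highest values were 194, 281 and 347 CPM in mWT mice and 3.27, 9.46 and 16.9 CPM in fWT mice. No female reached the lowest male. The log2 fold change was 4.71 (standard error 0.47, edgeR adjusted p = 3.15e-07), or 26.2-fold. In KO mice the values were 196, 266 and 503 CPM in males and 3.21, 16.2 and 35.8 CPM in females, again without overlap. The log2 fold change there was 4.07 (standard error 0.45, edgeR adjusted p = 1.60e-06), or 16.8-fold.

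Hsd3b2 and Hsd3b3 are the members of this cluster with the dehydrogenase and isomerase activity that turns delta-5 steroids into delta-4 steroids, and both were higher in males, by 2.04-fold and 1.71-fold in WT mice. Hsd3b2 ranged from 58.9 over a median of 68.8 to 84.1 CPM in mWT and from 23.1 over 35.3 to 43.5 CPM in fWT mice, without overlap (log2 fold change 1.03, standard error 0.14, edgeR adjusted p = 1.19e-05). In KO mice it ran from 55.9 over 57.7 to 83.4 CPM in males and from 26.9 over 39.0 to 46.4 CPM in females, and the log2 fold change was 0.79 (standard error 0.14, edgeR adjusted p = 0.000333). The males were above all females in both genotypes. Hsd3b3 had 228, 243 and 267 CPM as lowest, median and highest mWT values and 126, 139 and 173 CPM in fWT mice, which did not overlap (log2 fold change 0.77, standard error 0.09, edgeR adjusted p = 9.55e-07). The KO values were 213, 275 and 334 CPM in males and 145, 152 and 171 CPM in females, which gave 0.81 on the log2 scale (standard error 0.09, edgeR adjusted p = 5.29e-07). The 95% confidence interval of the sex difference in WT mice, 3.73 to 5.69 on the log2 scale for Hsd3b5, lay above those of Hsd3b2 (0.73 to 1.33) and Hsd3b3 (0.58 to 0.96). The difference between these genes was not tested.

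The A-ring reductases went in opposite directions. Srd5a1, which turns testosterone into dihydrotestosterone and starts the 5α route of clearance, had 84.1, 112 and 145 CPM as lowest, median and highest mWT values against 33.3, 43.3 and 60.6 CPM in fWT mice. All males were above all females, and the log2 fold change was 1.35 (standard error 0.15, edgeR adjusted p = 6.22e-07), or 2.54-fold. In KO mice Srd5a1 had 88.3, 111 and 138 CPM in males and 38.8, 47.2 and 65.8 CPM in females, also without overlap (log2 fold change 1.14, standard error 0.15, edgeR adjusted p = 7.16e-06). Akr1d1, which starts the 5β route and also serves bile acid synthesis, was lower in males. Its values were 186, 239 and 278 CPM in mWT and 256, 322 and 359 CPM in fWT mice, and the groups overlapped (log2 fold change −0.40, standard error 0.12, edgeR adjusted p = 0.0176). In KO mice it had 190.5, 225 and 263 CPM in males and 269, 333 and 465 CPM in females, without overlap (log2 fold change −0.61, standard error 0.12, edgeR adjusted p = 0.000570). The call for WT mice was lost when mWT mouse 4 was left out (edgeR adjusted p = 0.0505).

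Cyp17a1, the 17α-hydroxylase and 17,20-lyase known mainly from gonads, had the strongest female excess among the members. It had 8.59, 17.8 and 23.0 CPM as lowest, median and highest values in mWT mice and 91.1, 230.3 and 300.3 CPM in fWT mice. Every female was above every male, and the mRNA was 12.6-fold higher in females (log2 fold change male over female −3.66, standard error 0.37, edgeR adjusted p = 4.29e-07). In KO mice the values were 11.6, 14.4 and 32.1 CPM in males and 97.5, 135 and 287 CPM in females, again without overlap. Here the females were 8.48-fold higher (log2 fold change −3.08, standard error 0.36, edgeR adjusted p = 3.36e-06). The enzyme that delivers pregnenolone upstream, Cyp11a1, was below the expression filter, with group means of at most 0.0139 CPM.

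Hsd11b1, the reductase that regenerates corticosterone in liver, showed a small sex difference only in the WT comparison, and the difference between the genotypes did not pass a test of its own, given with the interaction. It had 502, 555 and 597 CPM in mWT and 573, 654 and 768 CPM in fWT mice as lowest, median and highest values. The ranges overlapped, and the log2 fold change was −0.29 (standard error 0.10, edgeR adjusted p = 0.0392). This call was lost on leaving out any one of mWT mice 1, 3, 4, 5 and 6 or fWT mice 1, 2, 3 and 5, and the highest adjusted p, 0.108, came without fWT mouse 1. In KO mice it had 583, 661 and 792 CPM in males and 596, 676 and 927 CPM in females (log2 fold change −0.09, 95% confidence interval −0.28 to 0.11, edgeR adjusted p = 0.606).

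The remaining members, which interconvert 17-keto and 17β-hydroxy steroids, did not pass the test between the sexes. Hsd17b2, the oxidative enzyme, had 98.6, 126 and 146 CPM in mWT and 124, 139 and 157 CPM in fWT mice as lowest, median and highest values. Its ranges overlapped, and the 95% confidence interval of the log2 fold change was −0.44 to 0.09 in WT (edgeR adjusted p = 0.389) and −0.31 to 0.22 in KO mice (edgeR adjusted p = 0.856). Akr1c6, the reductive enzyme, had 1198, 1430.1 and 1683 CPM in mWT and 1221, 1313 and 1437 CPM in fWT mice. These also overlapped, with intervals of −0.07 to 0.29 in WT (edgeR adjusted p = 0.434) and −0.06 to 0.29 in KO mice (edgeR adjusted p = 0.407). In both genotypes these intervals leave out a difference of the size seen for Hsd3b3.

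**Figure D2:**
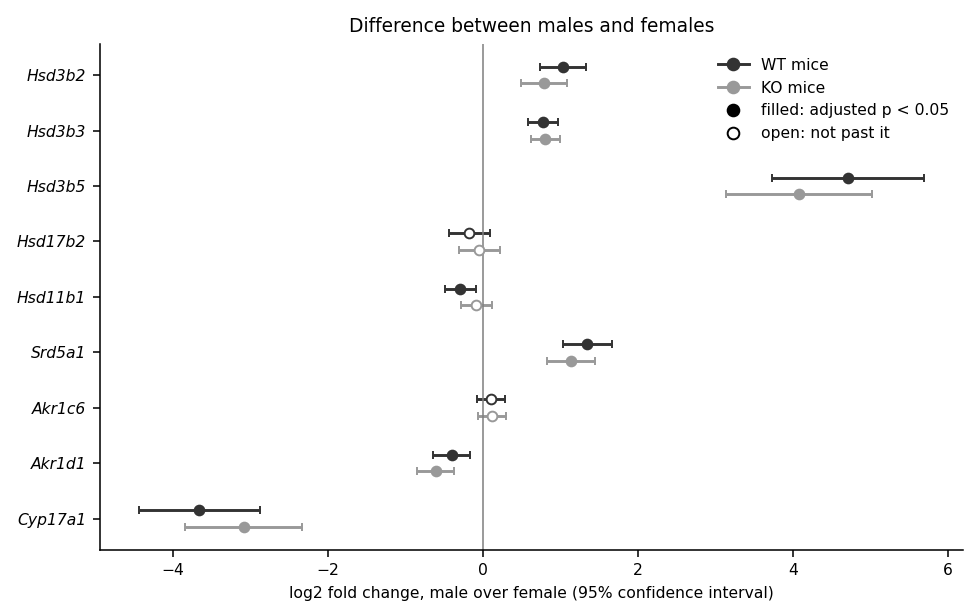
Log2 fold change of males over females with its 95% confidence interval (horizontal axis) for each of the 9 enzymes in WT (dark) and KO (grey) mice, filled where the edgeR adjusted p was under 0.05. Hsd3b5 lies far to the right at 4.71 and 4.07 and Cyp17a1 far to the left at −3.66 and −3.08, and the intervals of both genotypes overlap for every gene.

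Other liver cells also differed between the sexes. Of 6 Kupffer cell markers, 4 were lower in mWT than in fWT mice and 0 of 6 in the KO comparison by both edgeR and DESeq2 (2 at an unadjusted p under 0.05 in edgeR), and their summed level was 77.8 to 159 CPM in mWT, 142 to 258 CPM in fWT, 74.5 to 207 CPM in mKO and 118 to 203 CPM in fKO mice. Of 5 stellate cell markers, 1 was lower in males in WT and 2 in KO mice, with sums of 174 to 317, 258 to 327, 170 to 261 and 223 to 331 CPM in mWT, fWT, mKO and fKO mice. Of 5 endothelial markers, 2 were lower in males in WT mice and 1 in KO mice, with sums of 112 to 136 CPM in mWT, 126 to 168 CPM in fWT, 112 to 138 CPM in mKO and 117 to 169 CPM in fKO mice. Of 5 cholangiocyte markers, 3 were tested, and 1 of the 3 was lower in males in WT mice by edgeR and 0 in KO mice (2 at an unadjusted p under 0.05 and 1 by DESeq2), with sums over the 5 of 30.4 to 40.1 CPM in mWT, 36.0 to 56.3 CPM in fWT, 30.8 to 47.0 CPM in mKO and 39.2 to 53.3 CPM in fKO mice. Of 5 lymphocyte markers, 2 were tested and 0 passed the adjusted threshold between the sexes by edgeR or DESeq2 (0 in WT and 1 in KO mice at an unadjusted p under 0.05), and their sums were 0.749 to 2.74 CPM in mWT, 1.81 to 3.53 CPM in fWT, 0.823 to 2.08 CPM in mKO and 1.47 to 5.58 CPM in fKO mice. The 1 adipose marker tested of 4 did not pass between the sexes in either genotype by edgeR or DESeq2, also not at an unadjusted p under 0.05. Over all 12330 genes, the edgeR unadjusted p between the sexes was under 0.05 for 3774 in WT and 3502 in KO mice. The part of these other liver cells in the members' sex differences was not tested.

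The second comparison asked whether loss of Mup changed the members. In males 0 of 9 members passed the adjusted threshold in edgeR, against 0.211% of all genes. The unadjusted p was under 0.01, the cut-off used in the study, for 1 of 9 members and 3.52% of all genes. It was under 0.05 for 1 member and for 1305 of the 12330 genes. No member's 6 mKO mice were clear of the 6 mWT mice, as were those of 1.09% of genes. DESeq2 also called 0 of the 9. The member with the lowest p was Hsd11b1, with 502, 555 and 597 CPM as lowest, median and highest mWT values and 583, 661 and 792 CPM in mKO mice. The ranges overlapped only at their edge, and the log2 fold change was 0.27 (standard error 0.10, edgeR adjusted p = 0.281). Hsd17b2 had 98.6 to 146 CPM in mWT and 122 to 174 CPM in mKO mice, which overlapped (log2 fold change 0.25, 95% confidence interval −0.01 to 0.52, edgeR adjusted p = 0.503). For the other members the log2 fold change lay between −0.13 for Hsd3b2 and 0.17 for Cyp17a1. The interval was narrow for Akr1c6 (−0.05 to 0.31) and Hsd3b3 (−0.06 to 0.32) and wide for Hsd3b5 (−0.66 to 0.99) and Cyp17a1 (−0.56 to 0.91), and changes within these bounds are not excluded by the data.

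In females 0 of 9 members passed the adjusted threshold (0.0892% of all genes). An unadjusted p under 0.01 (0.876% of genes) or under 0.05 (601 of 12330 genes) was found for 0 members. No member's groups were apart (0.341% of genes). DESeq2 called 0 of the 9 here as well. Hsd3b5 had the largest estimate, with 3.27, 9.46 and 16.9 CPM as lowest, median and highest fWT values and 3.21, 16.2 and 35.8 CPM in fKO mice. The fKO mice spread over the whole fWT range and beyond it, and the log2 fold change was 0.81 (standard error 0.42, 95% confidence interval −0.08 to 1.69, edgeR adjusted p = 0.929). Cyp17a1 had 91.1 to 300.3 CPM in fWT and 97.5 to 287 CPM in fKO mice, which overlapped almost fully (log2 fold change −0.40, 95% confidence interval −1.09 to 0.29, edgeR adjusted p = 0.943). The other 7 members had log2 fold changes from 0.07 for Hsd11b1 to 0.19 for Srd5a1. Over the members the median log2 fold change was 0.13 in males (6 of 9 above 0) and 0.12 in females (8 of 9 above 0), beside −0.0021 and −0.0026 over all genes tested.

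The difference between the KO effects of males and females (interaction) passed the adjusted threshold for 0 of 9 members by edgeR and 0 by DESeq2, against 0.00811% of all genes, and an unadjusted p under 0.01 for 0 members against 1.16% of genes. None of the 9 had an unadjusted p under 0.05, where 735 of 12330 genes did. The estimates were widest for Hsd3b5 (−0.64, 95% confidence interval −1.84 to 0.57) and Cyp17a1 (0.57, −0.44 to 1.58) on the log2 scale. For Hsd11b1 the estimate was 0.21 (95% confidence interval −0.08 to 0.49, edgeR adjusted p = 0.884), so that its sex difference was not shown to depend on genotype.

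**Figure D3:**
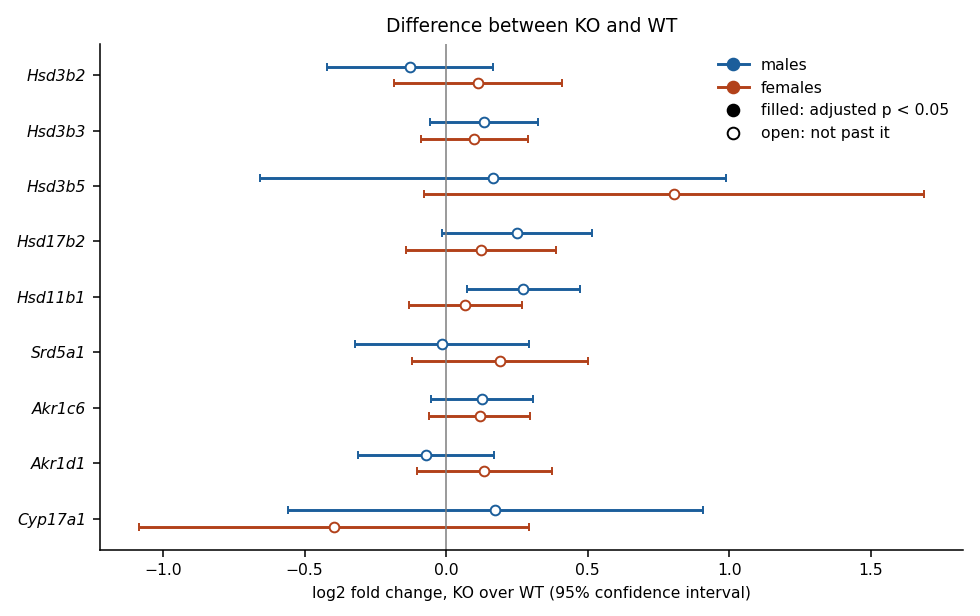
Log2 fold change of KO over WT mice with its 95% confidence interval (horizontal axis) for each of the 9 enzymes in males (blue) and females (red). All points are open because no adjusted p was under 0.05, and only the interval of Hsd11b1 in males, from 0.07 to 0.47, leaves out 0.

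Spread between mice of a group differed widely among the members. The coefficient of variation was 5.92% for Hsd3b3 and 6.07% for Hsd11b1 in mWT mice, but 51.0% for Hsd3b5 in fWT and 64.6% in fKO mice, where the highest mouse had 11.2 times the level of the lowest. Cyp17a1 varied by 32.7% in mWT, 47.2% in mKO, 38.8% in fWT and 44.8% in fKO mice. One female stood out in many members at once: fKO mouse 4 had the highest value of its group for Hsd3b2, Hsd11b1, Akr1d1 and Cyp17a1 and the lowest for Hsd3b3, Hsd3b5 and Hsd17b2. Without it, the log2 fold change of fKO against fWT was 1.02 (standard error 0.36) for Hsd3b5 and −0.66 (standard error 0.32) for Cyp17a1, both with an edgeR adjusted p of 0.997, and that of Hsd11b1 turned from 0.07 to −0.03. Other omissions made the same estimates smaller, with 0.49 for Hsd3b5 without fKO mouse 5 and −0.26 for Cyp17a1 without fWT mouse 4, against 0.81 and −0.40 with all mice. Among males, mKO mouse 1 had the highest value of its group for Hsd3b2, Hsd3b3, Hsd3b5, Hsd11b1, Srd5a1 and Akr1c6 and the lowest for Akr1d1. Without it, the log2 fold change of mKO against mWT was −0.03 for Hsd3b5 and 0.21 for Hsd11b1 (edgeR adjusted p = 0.477), and the 6 calls between mKO and fKO mice were kept without either of these 2 mice.

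The 2 members with the widest spread were set against each other in single mice, a pair chosen after their values were seen. In fWT mice, the 2 with most Hsd3b5 (16.9 and 16.6 CPM) had the least Cyp17a1 (91.1 and 131 CPM). On log2 CPM, Pearson's r was −0.78 (exact permutation p = 0.0764) and Spearman's rho −0.89 (exact permutation p = 0.0333) in fWT mice, n = 6. In mWT mice r was −0.76 (exact permutation p = 0.0917) and rho −0.77 (exact permutation p = 0.103), n = 6. In fKO mice r was −0.70 (exact permutation p = 0.119) and rho −0.49 (exact permutation p = 0.356), and in mKO mice r was −0.01 (exact permutation p = 0.982) and rho −0.31 (exact permutation p = 0.564), n = 6 each. Without the 2 mice farthest from the median of Hsd3b5, r was −0.96 in fWT, −0.96 in mWT, −0.00 in fKO and 0.24 in mKO mice, n = 4 each. These values were not tested, and 4 mice are too few to tell in which groups a relation held. Over all 36 pairs of members in the 4 groups, 144 correlations were computed and 0 had a Benjamini-Hochberg adjusted exact permutation p under 0.05, while 25 had an unadjusted Pearson permutation p under 0.05. With 6 mice the smallest exact p possible for 1 correlation is 0.00139, so no single relation could pass the adjustment over 144 by itself, and the count of 0 does not show that relations are absent. The lowest adjusted value was 0.24, shared among others by Hsd3b3 and Srd5a1 in mKO mice (r = 0.97, exact permutation p = 0.00278, n = 6), which rose together over the 6 mice. For Hsd3b5 and Cyp17a1 the adjusted values were 0.324 in fWT, 0.347 in mWT, 0.40 in fKO and 0.989 in mKO mice.

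**Figure D4:**
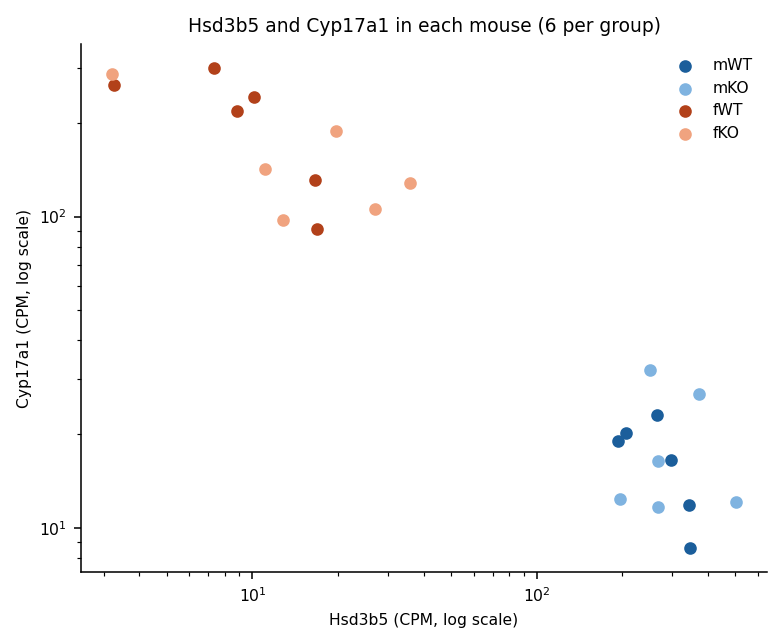
Hsd3b5 (horizontal) against Cyp17a1 (vertical), both as CPM on log axes, with 1 point per mouse and 6 mice per group. Males form a cloud at high Hsd3b5 (194 to 503 CPM) and low Cyp17a1 (8.59 to 32.1 CPM) and females one at low Hsd3b5 (3.21 to 35.8 CPM) and high Cyp17a1 (91.1 to 300.3 CPM).

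Other genes of steroid handling were followed in lists of 62 genes in all, of which 42 were expressed above the filter. Between mWT and fWT mice 13 of the 42 were higher and 6 lower in males, and between mKO and fKO mice 14 were higher and 8 lower, while by edgeR 0 of the 42 passed the adjusted threshold for KO against WT in either sex or for the interaction. An unadjusted p under 0.05 was found for 1305, 601 and 735 of all 12330 genes in males, females and the interaction test. Of the 42 genes, 12, 3 and 5 had one. DESeq2 called 1 in males, the oestrogen receptor Esr1 (log2 fold change −0.94, DESeq2 adjusted p = 0.0119, edgeR adjusted p = 0.140), 0 in females and Esr1 again for the interaction (DESeq2 adjusted p = 0.0131, edgeR adjusted p = 0.745). Among 10 other hydroxysteroid dehydrogenases tested, 3 were higher and 2 lower in mWT than fWT mice. Hsd17b6, an oxidative enzyme for androgen products, was lower in males with 136 ± 51.5 CPM in mWT and 398 ± 120 CPM in fWT mice (SD, n = 6, log2 fold change −1.55, standard error 0.24, edgeR adjusted p = 7.75e-05). Hsd17b12, which also serves fatty acid elongation, was higher in males with 173 ± 19.6 CPM in mWT and 123 ± 10.2 CPM in fWT mice (SD, n = 6, log2 fold change 0.49, edgeR adjusted p = 1.73e-05). Of the neighbours in the Hsd3b cluster, Hsd3b1, Hsd3b4 and Hsd3b6 were below the filter, with group means of at most 0.801 CPM. Of 7 other reductases tested, Akr1c12 was higher (log2 fold change 0.33, edgeR adjusted p = 0.0110) and Akr1c20, whose coding sequence was 92.3% identical to that of Akr1c6, lower in mWT than fWT mice (log2 fold change −0.46, edgeR adjusted p = 0.000166).

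Of 10 genes of electron and NADPH supply, not all of them tied to the members, 3 were higher in mWT than fWT mice and 0 lower. The largest difference was that of Fdx1 (log2 fold change 0.55, edgeR adjusted p = 0.0025). The others were the cytochrome b5 reductase Cyb5r3 (433 ± 37.6 against 319 ± 40.6 CPM, SD, n = 6, log2 fold change 0.44, edgeR adjusted p = 0.00133) and H6pd, which feeds NADPH to Hsd11b1 (349 ± 22.2 against 300.1 ± 18.9 CPM, SD, n = 6, log2 fold change 0.22, edgeR adjusted p = 0.0447). In WT mice H6pd was thus higher in the sex in which Hsd11b1 was lower, although that Hsd11b1 call was lost without single mice. In KO mice H6pd was again higher in males (log2 fold change 0.41, edgeR adjusted p = 0.000293). Hsd11b1 did not pass there (log2 fold change −0.09, edgeR adjusted p = 0.606). Of the 10 supply genes, 3 were higher and 1 lower in males in KO mice. The lower one was Por (log2 fold change −0.85, edgeR adjusted p = 0.0381). All 4 tested conjugating and binding genes differed between mWT and fWT mice. The glucuronosyltransferases Ugt2b1 (log2 fold change 1.22, edgeR adjusted p = 3.91e-08) and Ugt2b5 (0.48, edgeR adjusted p = 0.00531) and the sulfotransferase Sult2a8 (0.78, edgeR adjusted p = 5.42e-06) were higher in males. Serpina6, the plasma carrier of glucocorticoids, was lower in males (log2 fold change −0.92, edgeR adjusted p = 1.75e-05).

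Among 6 steroid and sterol hydroxylases, 2 were higher in males (Cyp2d9, log2 fold change 5.08, and Cyp7b1, 3.43) and 2 lower (Cyp2a4, −11.78, and Cyp39a1, −0.93) in WT mice, with edgeR adjusted p = 0.000758 as the highest of the 4. Cyp2a4 averaged 0.203 CPM in mWT mice, near the 3-count floor, so the size of its fold change is uncertain. Of 7 adrenal and gonadal synthesis genes, only Star and Cyp21a1 passed the filter, and Cyp21a1 was higher in males, at a mean of 1.07 CPM in mWT and 0.168 CPM in fWT mice (log2 fold change 2.65, standard error 0.49, edgeR adjusted p = 0.000317). The fWT mean of Cyp21a1 also lay near the 3-count floor, so the size of this fold change is uncertain too. Of 3 steroid receptors tested, Esr1 was lower in males in KO mice, where mKO mice averaged 14.7 ± 3.38 CPM against 61.0 ± 9.43 CPM for fKO mice (SD, n = 6, log2 fold change −2.05, standard error 0.25, edgeR adjusted p = 4.97e-06). In WT mice Esr1 stood at 28.3 ± 12.8 CPM in mWT and 44.6 ± 13.4 CPM in fWT mice (SD, n = 6, log2 fold change −0.65, edgeR adjusted p = 0.0690). The known sex markers of mouse liver matched the labels, with 10 of 10 male markers higher and 13 of 13 female markers lower in males in both genotypes. These lists were chosen with earlier results of these data known and include Cyp2d9, Cyp7b1 and Cyp2a4 from above, so the match is no separate check. In fKO against fWT mice all 10 male markers had a positive log2 fold change (median 0.48), as did Hsd3b5. By edgeR or DESeq2, 0 of the 10 passed the adjusted threshold. In edgeR 3 of the 10 had an unadjusted p under 0.05, as did 601 of 12330 genes. Of the 13 female markers, 3 were above 0 and 10 below in fKO against fWT mice (median −0.21), with 0 past the adjusted threshold in edgeR. In mKO against mWT mice 5 male markers were above 0 and 5 below (median −0.03). There 0 passed the adjusted threshold by edgeR and 1 by DESeq2.

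**Figure D5:**
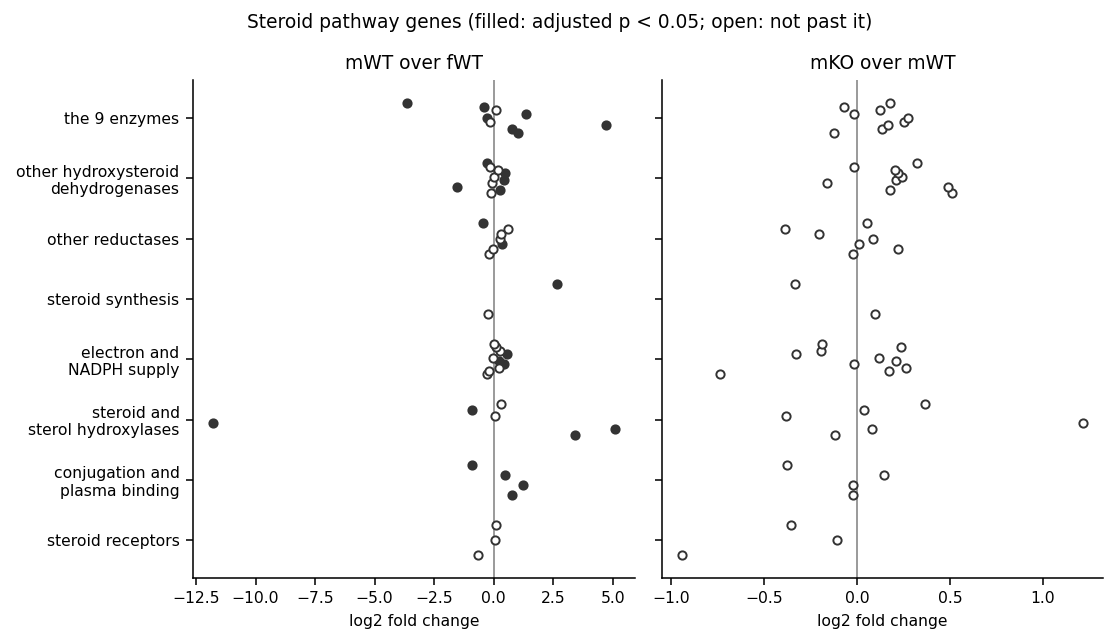
Log2 fold changes of the 9 enzymes and of 7 lists of steroid pathway genes, with 1 point per tested gene, for mWT over fWT (left) and mKO over mWT (right, with a narrower axis). Points filled for an edgeR adjusted p under 0.05 appear in the left panel, from −11.78 for Cyp2a4 to 5.08 for Cyp2d9, and none in the right panel.

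For each member the 3 genes with the most similar profile were taken by the smallest root mean square difference of mean-centred log2 CPM over the 24 libraries. For Hsd3b5 they were the complement gene C6 (difference 0.577), Cyp2d9 (0.694) and Nat8 (0.728), against a root mean square of 2.43 for Hsd3b5 itself. For Cyp17a1 they were Cyp2c39 (0.549), Nt5e (0.658) and Atp6v0d2 (0.66), against 1.77. The neighbours of Hsd3b5 were male-biased and those of Cyp17a1 were higher in females. As the measure spans both sexes, members with a large sex difference draw such neighbours, so this is no separate result. Srd5a1 was closest to Slc35e3 (0.221), C9 (0.223) and Aox3 (0.261), Hsd3b2 to Hao1 (0.229), Tpmt (0.245) and Dpy19l1 (0.246), and Hsd3b3 to Serpina1c (0.164), Tmem19 (0.181) and Abcb10 (0.191). Akr1d1 was closest to As3mt (0.153), Rfk (0.162) and Ces1g (0.171), which also had higher means in females. The closest genes were the proteasome subunits Psma2 (0.0768), Psma3 (0.0770) and Psma1 (0.0856) for Akr1c6, Rida (0.111), Rnf13 (0.118) and F9 (0.119) for Hsd11b1, and Cyb561a3 (0.161), Gjb1 (0.166) and Parp3 (0.167) for Hsd17b2. The root mean squares of these members themselves were small, at 0.157 for Akr1c6, 0.203 for Hsd11b1 and 0.248 for Hsd17b2.

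Near-identical copies limit what the counts of some members can tell. Of the stretches of 100 transcript bases, 8.28% in Hsd3b2, 4.67% in Hsd3b3 and 7.79% in Hsd3b5 also occurred in another gene, 13.6% in Srd5a1 occurred in Gm17108, and 0 did for Hsd17b2, Hsd11b1, Akr1c6, Akr1d1 and Cyp17a1. All 6 Hsd3b genes of the cluster were also summed to 1 feature, which removes a split of reads among these 6 only. The sum left out Gm10681 and Gm4450, which also hold stretches of Hsd3b5. Nor does it hold reads that counting may have dropped. The sum was 592 ± 81.0 CPM in mWT and 189.8 ± 26.5 CPM in fWT mice (SD, n = 6), and no female reached the lowest male. The log2 fold change of this sum was 1.64 (standard error 0.13, edgeR adjusted p = 2.50e-10) in WT and 1.61 (standard error 0.13, edgeR adjusted p = 4.35e-10) in KO mice. Srd5a1 overlaps the opposite-strand gene Nsun2, which had 41103 counts over the 24 libraries, and Hsd11b1 overlaps Lamb3, so their levels are uncertain to the extent that counting ignored strand.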

How the data were processed

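RNAseq of liver was available for 24 mice. The library preparation kit was stranded and polyA-selected. Per the labels, bcl2fastq 2.19, fastp 0.20, STAR 2.7a and edgeR 3.28.1 were used by the submitters with genome build GRCm38.p6, and the authors counted reads with featureCounts. The deposited values are unnormalized read counts for each Ensembl gene. Strand setting, annotation release and treatment of multi-mapping reads are not given in the sources used here. Of 25746 genes, 25635 matched GENCODE M21 and 7064 had no count.

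Genes reaching 0.66 CPM in 6 or more of 24 libraries (12330) were scaled by TMM and fitted with edgeR 4.0.16 (R 4.3.3, quasi-likelihood, robust, one mean per group, all 24 libraries). P-values were adjusted by Benjamini-Hochberg over all 12330 genes. Library totals of 15361901 to 26261394 counts set the precision. Replicate mice were further apart than counting noise allows (lowest chi-square per gene 8.19 among 60 pairs). DESeq2 1.42.0, other filters, scalings and dispersions, removal of Mup genes, a replicate block, summed Hsd3b counts and leaving out each mouse were tried. The procedure was tested on simulated data. Correlations used exact permutation tests on log2 CPM (Python 3.11.15, with Biopython 1.88 for alignments and matplotlib 3.10.9 for plots).

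The members and gene lists were chosen with earlier results of these data known. Named were the 9 members, the called genes of the lists (at most 4 per list by size) and the 3 genes most similar to each member. Methylation and plasma data were not used here. A further gene of the receptor list is not reported here.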

Additional observations from a re-analysis of the deposited data

How the results depend on the processing

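Of 1491 log2 fold changes of the members over all alternatives, 1459 kept their direction and their side of the threshold, 10 fell short of it and 22 changed sign. The 10 were Hsd11b1 in 9 cases and Akr1d1 in 1 between mWT and fWT mice, each with 1 mouse left out, and the members called there then numbered 5 to 7. In all 10 the mouse left out was an mWT or fWT mouse. The 1459 also include refits in which the mouse left out belonged to neither compared group. Such refits could hardly move the estimate, so they say little about how stable a call was. The 6 members called between mKO and fKO mice, and the 0 called for KO against WT or for the interaction, were the same numbers under all alternatives. All values that changed sign belonged to members that were not called. With 1 mouse left out, log2 fold changes of mKO over mWT ran from −0.0299 to 0.266 for Hsd3b5, −0.0886 to 0.0694 for Srd5a1 and −0.0561 to 0.294 for Cyp17a1. Those of mKO over fKO ran from −0.154 to 0.0334 for Hsd17b2 and −0.145 to 0.0098 for Hsd11b1, and that of fKO over fWT from −0.0295 to 0.113 for Hsd11b1. The interaction ran from −0.0378 to 0.0933 for Hsd3b3 and −0.0504 to 0.0607 for Akr1c6. Summing the Hsd3b counts gave 0.121 in place of the Hsd3b2 value for mKO over mWT and −0.0287 in place of the Hsd3b3 interaction, since the sum holds all 6 genes.

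Counts of genes over the whole table moved more. In males, 26 genes were called for KO against WT, 139 by DESeq2, 48 with only both male groups fitted, 2 without the Mup genes and 19 to 60 with 1 mouse left out (60 without mWT mouse 1 and 43 without mWT mouse 2). In females 11 were called, 18 by DESeq2 and 0 without the Mup genes (by edgeR, 601 genes at an unadjusted p under 0.05 with the Mup genes in). For the interaction 1 was called, and 11 by DESeq2. Of the 26 genes called in males 17 were Mup genes, and of the other 9, 2 were also called without the Mup genes. In females all 11 were Mup genes. Why the other 7 were lost, and the cause of the other shifts, was not tested.

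Mice with the same number in different groups are different animals. Same-numbered mice did not deviate together (median correlation −0.00193 over 36 pairs, from −0.335 to 0.253), and 1 of 24 mice correlated best with its own number. With the number as a replicate block, 24 genes were called in males and 11 in females, and the Srd5a1 value for mKO over mWT was 0.0022 in place of −0.02. Depth did not limit the members, whose lowest count was 61, but the intervals for Hsd3b5 and Cyp17a1 were wide.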
